A study of Mus musculus with 95 samples.

Results

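HPC-1 is a mouse blood progenitor population that the study sorted from bone marrow, and the data described here compare transplanted HPC-1 early and late after the transplant. The members were placed by their titles, in a comparison chosen with earlier results of these data known. They were 6 libraries of 3 and 4 weeks (early, 3 per week) and 9 libraries of 10, 13 and 16 weeks (late, 3 per week). Together they are 15 of the 95 libraries of the series. The title of 1 of the 10-week libraries reads 10k in place of 10wk, and it was placed at 10 weeks. All 15 carry the same treatment: recipients were lethally irradiated with 900 cGy and given 8000 Lin-Sca1+cKit+ (LSK) marrow cells. By the labels no untreated library enters the early and late arms, and time after transplant cannot be told apart from anything that was done week by week. The strain is given as B6.SJL and the age as 8 to 12 weeks, without saying whether donor or host is meant. Each library was made in bulk from sorted cells by SMART-Seq v4, which amplifies RNA from few cells, followed by Nextera XT. No label ties the libraries of a week to different animals, and p therefore reflects only how far these libraries vary, which may be technical. In bulk samples, fewer cells of a type and less RNA per cell cannot be told apart.

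HPC-1 is the usual name for the CD48+CD150- part of the LSK compartment, multipotent progenitors that lie downstream of the stem cells and feed the lymphoid, myeloid and erythroid branches. After irradiation and transplant this compartment is rebuilt from donor cells, which divide rapidly at the start and slow down later. Gng11 encodes the gamma subunit 11 of heterotrimeric G proteins and is abundant in stem cells and platelets. Cd63 is a tetraspanin of lysosomes and granules, and Mcpt4 encodes a chymase of connective tissue mast cells.

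The label was checked against the sort markers. The labels give 1 sort gate for all 3 populations of the study, CD48- CD150+, which is that of stem cells. Against that gate, Cd48, the surface glycoprotein that defines HPC-1, was abundant in all 15 libraries, from 397 to 1380 CPM (the count scaled to the library's total). Slamf1, which encodes CD150, had no count in 10 of the 15, and its highest level was 25.2 CPM. Kit, the stem cell factor receptor, lay between 44.0 and 211 CPM, Ly6a (Sca-1) between 138 and 769 CPM and Flt3, a cytokine receptor of multipotent progenitors, between 90.2 and 366 CPM. None of these 4 passed the late against early test, with adjusted p from 0.819 to 0.967. Total counts per library ran from 4179040 to 5929923 early and from 3947154 to 6072861 late. Early libraries detected 14076 ± 1503 genes (SD, n = 6) and late libraries 12546 ± 1155 (SD, n = 9), and the part of this difference in the results below was not tested. The mitochondrial share of counts was 0.632% to 1.49% early and 0.740% to 2.01% late. For 2 of the 15 libraries, nearly the same counts stand under another label: 10-week replicate 3 is paired in this way with an 8-week HPC-1 library (chi-square per degree of freedom 2.24), and 13-week replicate 2 with a steady-state HPC-2 library (2.10), where other pairs of the series had a median of 128. Without these 2 libraries Gng11, described next, kept an adjusted p of 0.0385 and Zfp36, in the comparison of 16 with 10 weeks, 1 of 0.0142 (edgeR). Of the lists described below, medians moved from -1.02 to -1.24 for mast cells and basophils and from 1.52 to 1.73 for neutrophil granule genes. They moved from -0.32 to -0.19 for erythroid genes, from -0.40 to -0.53 for cytosolic chaperones and from -0.55 to -0.68 for lymphoid priming. The median moved from -0.45 to -0.56 for glycolysis and, with a change of sign, from 0.07 to -0.11 for granulocyte and monocyte priming. By correlation with the other libraries, 4 of 6 early and 6 of 9 late libraries were nearer to their own arm than to the other.

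Late HPC-1 held about 4 times as much Gng11 RNA as early HPC-1. The level of Gng11 (chr6:4003904-4008445, GRCm38) was 17.8, 12.1 and 18.4 CPM in the 3-week libraries and 31.7, 23 and 26.0 CPM in the 4-week libraries. It was 80.5, 45.9 and 64.4 CPM at 10 weeks, 119, 99.9 and 113 CPM at 13 weeks and 87.6, 126 and 65.7 CPM at 16 weeks. Every late library was above every early one, and the lowest late library was the second of 10 weeks. The mean was 21.5 ± 6.91 CPM early (SD, n = 6) and 89.2 ± 27.6 CPM late (SD, n = 9), a log2 change of 2.09 (SE 0.31, adjusted p = 0.0234 by edgeR's quasi-likelihood F test over 10933 genes). Gng11 thus rose, and it was the 1 gene of 10933 that passed the test (0.00915% higher late, and 0% lower late). At an unadjusted p under 0.05 there were 300 genes higher late (2.74%) and 363 lower late (3.32%), 6.06% in either direction. The groups of libraries did not overlap in 10 genes that were higher late (0.0915%) and 8 that were lower late (0.0732%), 0.165% in all.

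The call of Gng11 is near its limit. It was lost with each 3-week and each 13-week library left out, and without 4-week replicates 2 or 3 or 16-week replicates 1 or 2, with adjusted p up to 0.108, while the log2 change stayed between 1.96 and 2.26. DESeq2 called 39 genes on the same counts, 26 higher and 13 lower late, and limma voom with sample weights called 16, with Gng11 among them in each. Gng11 had been picked out from earlier results of these data, so its rise here is no independent support for them. The other marker genes, Cd63 and Mcpt4, and the gene lists were also chosen with those results known. The same limit therefore holds for their members, Tceal8, Itm2a and the annexins among them.

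In the weeks between the arms, which took no part in the test, the mean of Gng11 lay between those of 3 and 13 weeks. The mean was 36.5 ± 11.3 CPM at 5 weeks, 25.6 ± 10.7 CPM at 6 weeks and 73.4 ± 10.5 CPM at 8 weeks (SD, n = 3 each). In order of level, 3, 6, 4 and 5 weeks came lowest and 10, 8, 16 and 13 weeks highest. The libraries of each week overlapped in level with those of the next week in this order.

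Cd63, the tetraspanin, was the next of the marker genes. Its level was 173, 247 and 258 CPM at 3 weeks and 309, 290 and 255 CPM at 4 weeks. At 10 weeks it was 319, 375 and 513 CPM, at 13 weeks 333, 566 and 533 CPM and at 16 weeks 791, 732 and 552 CPM. The arms did not overlap, although the highest early and the lowest late library lay close together. The mean was 255 ± 46.7 CPM early and 524 ± 165 CPM late, a log2 change of 1.09 (SE 0.23, adjusted p = 0.255), which did not pass the test.

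**Figure D1:**
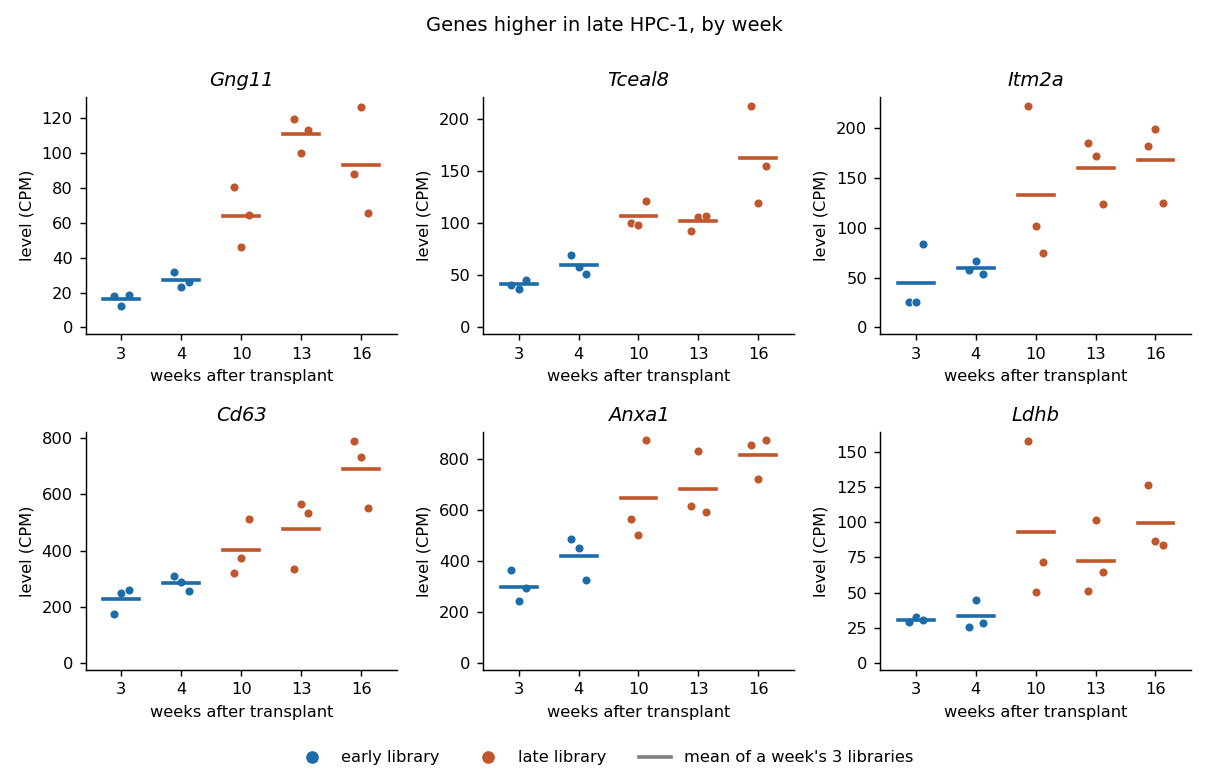
Levels in CPM (linear axis) of 6 genes in each HPC-1 library against weeks after transplant. Points are libraries, blue early and orange late, and bars are the mean of the 3 libraries of a week. In Gng11, Tceal8, Cd63, Anxa1 and Ldhb every late point is above every early point, and in Itm2a the highest early library (83.5 CPM) is above the lowest late one (74.2 CPM).

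Other genes stood beside Gng11 with arms that did not overlap, without passing the adjusted test. Tceal8, a small nuclear protein related to transcription elongation factors, ranged from 37.3 CPM through a median of 48.5 to 69.1 CPM early and from 92.7 through 107 to 212 CPM late (log2 change 1.33, SE 0.25, adjusted p = 0.196). Anxa1, a calcium-dependent phospholipid-binding protein, ranged from 241 through 343 to 485 CPM early and from 501 through 721 to 874 CPM late (log2 change 1.02, adjusted p = 0.196). Ldhb, the lactate dehydrogenase subunit that favours the conversion of lactate to pyruvate, ranged from 25.8 through 29.6 to 45.1 CPM early and from 50.4 through 84.1 to 158 CPM late (log2 change 1.52, adjusted p = 0.217). These 3 genes were about 2 to 3 times as high late as early, and the lowest late library was above the highest early one in each. Itm2a, a type II membrane protein, had a log2 change of 1.61 (adjusted p = 0.211) and a small overlap: 3-week replicate 3, at 83.5 CPM, exceeded 10-week replicate 3, at 74.2 CPM, and no other pair of libraries crossed. Pdzk1ip1, a small membrane protein whose promoter is active in stem cells, ranged from 15.8 to 55.4 CPM early and from 72.2 to 167 CPM late (log2 change 1.51, adjusted p = 0.275). Of the 10 genes in this class, the remaining 4 were Cpsf7, a subunit of the pre-mRNA cleavage factor, Serpini1, a serine protease inhibitor, Akr1c12, an aldo-keto reductase, and A530040E14Rik, named here after their values were seen. Akr1c12 was at 6.69 to 14.1 CPM early and 14.2 to 55.2 CPM late, and its near copy Akr1c13 at 62.0 to 146 CPM and 132 to 290 CPM. Reads shared by such copies make the split between them uncertain.

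In the annexin and S100 list, 8 of 12 measured members had a positive log2 change, with a median of 0.22 beside -0.01 over all genes tested, of which 5414 of 10933 were positive. Besides Anxa1, Anxa4 was at 112 to 224 CPM early and 208 to 528 CPM late (log2 change 0.97, adjusted p = 0.291). Among tetraspanins 12 of 17 were positive (median 0.15). Tspan4 (124 to 194 CPM early, 163 to 308 CPM late), Tspan32 (254 to 427 and 387 to 844 CPM) and Cd9 (141 to 237 and 215 to 302 CPM) followed Cd63, with log2 changes of 0.65, 0.62 and 0.54 and adjusted p from 0.473 to 0.675.

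Genes of stem cell identity leaned the same way. Of 24 members tested, 18 were positive, with a median of 0.27 and 0 called. At an unadjusted p under 0.05 there were 2, both higher late, where 2.74% of all genes were so. Apart from Pdzk1ip1 these were led by Hlf, a bZIP factor of stem cells, at 16.8 to 57.4 CPM early and 21.1 to 175 CPM late (log2 change 1.29, adjusted p = 0.737). Hlf was as low as the early libraries in 2 of the 10-week libraries (35.8 and 26.3 CPM) and in 13-week replicate 2 (21.1 CPM), the library that matches another label. Lmo2, a cofactor of the stem cell transcription complex, was at 436 to 796 CPM early and 478 to 774 CPM late. The summed level of the whole list was 1684 to 2296 CPM early and 1720 to 2729 CPM late. In the megakaryocyte and platelet list, 6 of 10 measured members were positive (median 0.44), Gng11 was the 1 called, and Pf4, platelet factor 4, was at 1.84 to 22.1 CPM early and 6.33 to 59.9 CPM late (log2 change 1.59, adjusted p = 0.816). That list's defining genes Gp6, Thbs1 and Tubb1 had no count in any of the 15 libraries, and its sum was 447 to 573 CPM early and 535 to 772 CPM late.

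Mcpt4 was detected early and had no count late. It had 0, 4.02 and 0 CPM in the 3-week libraries, 55.3, 95.1 and 182 CPM in the 4-week libraries, and no count in any of the 9 late libraries. The 4-week libraries thus held nearly all of it. Over the pooled early libraries Mcpt4 (chr14:56059629-56062313, GRCm38) made up 52.4 CPM, from 1581 counts. The late libraries hold 43598871 counts, in which the limit that a count of 0 allows (3 counts over the group) is 0.0688 CPM, so Mcpt4 was at least 762-fold lower late. Of the 1581 counts, 789 came from 4-week replicate 3, and without that library, an alternative chosen after seeing the data, the early level was 30.7 CPM and the bound 446-fold. These limits cover counting error only. The filter on low counts removed the gene from the main test, and without that filter it had an adjusted p of 0.266 by edgeR's quasi-likelihood F test over 21881 genes. With the 3-week libraries left out it passed the filter and was the 1 gene called, lower late. The early arm of that fit is the 4-week libraries alone, which held nearly all of Mcpt4. Between the arms it was at 63.5 ± 36.9 CPM at 5 weeks and 1.13 ± 1.64 CPM at 6 weeks (SD, n = 3 each), with no count in the 3 libraries of 8 weeks. In the other sorted populations, all 6 early HSC and all 6 early HPC-2 libraries had no count of it. Later, 1 HSC library of 16 weeks had 1 count (0.216 CPM), and HPC-2 replicate 2 of 8 weeks was at 65.9 CPM. That HPC-2 library and HPC-1 replicate 1 of 5 weeks, at 69.1 CPM and part of the 5-week mean above, hold nearly the same counts (chi-square per degree of freedom 4.00), so 1 of these labels is in doubt.

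Other mast cell proteases shared part of this shape: Tpsb2 and Cma1 were highest at 4 weeks and low late, whereas Cpa3 stayed well detected late. Tpsb2, mast cell tryptase beta, was at 19.0, 208 and 0 CPM at 3 weeks and 312, 293 and 450 CPM at 4 weeks, against 0 to 39.0 CPM late with a median of 3.03. Cma1, a mast cell chymase, was at 63.1, 261 and 0 CPM at 3 weeks and 447, 511 and 435 CPM at 4 weeks, against 0 to 75.9 CPM late with a median of 5.75. For these 2 genes the 3 libraries of 4 weeks exceeded every late library, whereas 2 of the 3 libraries of 3 weeks did not. Their log2 changes were -4.59 (SE 1.22, adjusted p = 0.457) and -4.03 (SE 1.14, adjusted p = 0.520). Cpa3, mast cell carboxypeptidase A, was at 257, 937 and 287 CPM at 3 weeks, 560, 927 and 852 CPM at 4 weeks and 188 to 403 CPM late (log2 change -1.16, SE 0.29, adjusted p = 0.372). The third 3-week library, with 0 for Mcpt4, Tpsb2 and Cma1, thus still held Cpa3, and the second 3-week library was high for 3 of the 4 genes.

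**Figure D2:**
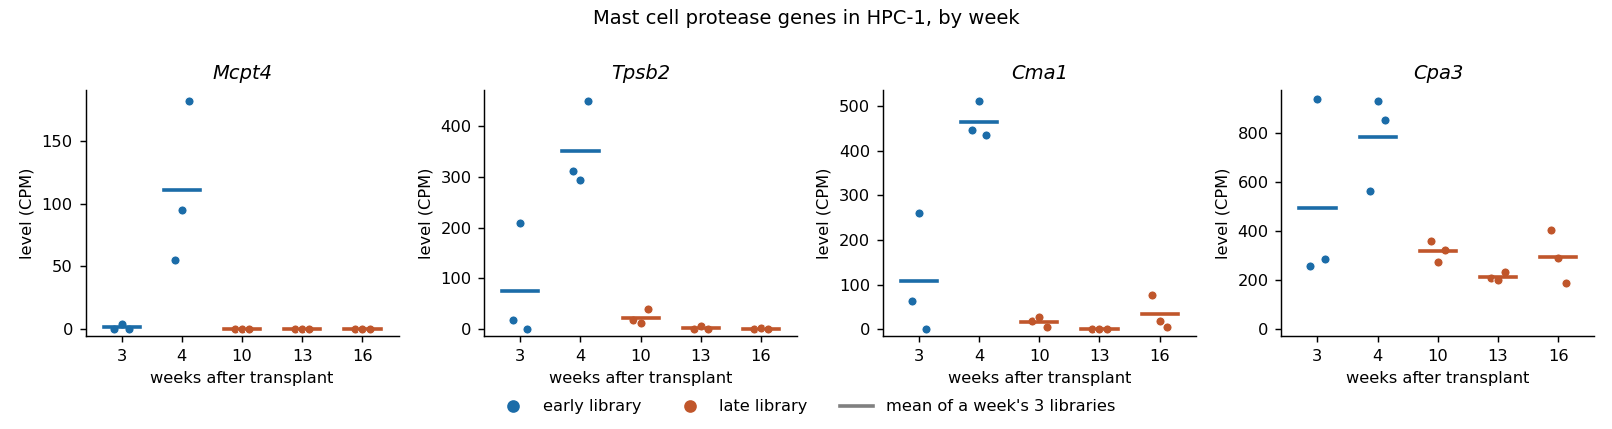
Levels in CPM (linear axis) of 4 mast cell protease genes in each HPC-1 library against weeks after transplant, with bars at the mean of a week's 3 libraries. The 4-week libraries are high for all 4 genes, the 3-week libraries are spread, and the late libraries stay at or below 75.9 CPM except for Cpa3, which lies at 188 to 403 CPM.

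Of the 27 genes listed for mast cells and basophils, 18 passed the filter on low counts, which Mcpt4 did not. Of these 18, 15 were lower late and 3 were higher, with a median log2 change of -1.02. None was called. At an unadjusted p under 0.05 there were 5 lower late and 2 higher late, against 3.32% and 2.74% of all genes. The 2 higher late were Cd63 and the chemokine gene Ccl3, the latter named after its values were seen. The median over these genes is shaped by the filter, which keeps a gene that is high in the early arm alone. Genes outside the named 4 did not share 1 pattern: Ms4a2, the beta chain of the IgE receptor, was at 0.506 to 90.1 CPM early with its highest values in 3-week replicate 2 (73.5 CPM) and 4-week replicate 3 (90.1 CPM), and Mcpt8, a basophil protease, was at 7.18 to 74.5 CPM early and 0 to 74.1 CPM late (adjusted p = 0.975). Kit, which mast cells share with progenitors, had a log2 change of 0.42. The summed level of the list was 731 to 2998 CPM early (median 2189) and 799 to 1692 CPM late (median 1082), with Mcpt1 and Mcpt9 at 0 in every library. Whether this comes from mast cells or their progenitors among the sorted cells was not tested.

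Lymphoid priming genes were mostly lower late. Of 20 measured members of the lymphoid priming list, 18 were negative and 2 positive, with a median of -0.55 and 0 called. At an unadjusted p under 0.05 there were 3, all lower late, where 3.32% of all genes were so. Dntt, the terminal transferase of early lymphoid progenitors, was at 1776, 1183 and 770 CPM at 3 weeks and 718, 603 and 961 CPM at 4 weeks. It was 1037, 450 and 1093 CPM at 10 weeks, overlapping the earlier weeks, and 151 to 358 CPM in the 6 libraries of 13 and 16 weeks. Its log2 change was -1.12 (SE 0.41, adjusted p = 0.750). Mef2c, a transcription factor of lymphoid priming, was at 149 to 412 CPM early and 95.5 to 190 CPM late (log2 change -0.76, adjusted p = 0.49). Gimap4, a GTPase of lymphocytes, was at 12.4 to 80.3 CPM in the 6 early libraries and had no count in 8 of 9 late libraries. The ninth, 10-week replicate 3, had 15.7 CPM and is the library with a near copy labelled 8 weeks. Gimap4 did not pass the test over all 15 libraries. With 10-week replicate 3 left out it was called, lower late (adjusted p = 0.0112 by edgeR's quasi-likelihood F test). That was 1 of 15 fits with a single library left out, and in the other 14 Gimap4 was not called. It was also called without the near-identical libraries. Without the 10-week libraries Gimap4 and Dntt were both called, lower late. Both of these fits also leave out 10-week replicate 3, the 1 late library with a count of Gimap4.

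Genes of antigen presentation and dendritic cells were lower late in all 8 measured members of the dendritic cell list (median -0.85, 0 called). At an unadjusted p under 0.05 there were 3, where 3.32% of all genes were lower late. H2-Ab1, an MHC class II chain, was at 101 to 422 CPM early, highest at 4 weeks (319, 422 and 295 CPM), and at 67.6 to 254 CPM late (log2 change -0.85, adjusted p = 0.737). Cd74, the invariant chain, was at 39.7 to 441 CPM early and 0 to 360 CPM late. Bst2, tetherin, was at 65.4 to 139 CPM early and 45.1 to 98.0 CPM late. The defining dendritic genes Siglech, Xcr1, Clec9a, Itgax and Batf3 did not pass the filter on low counts, and the sum of the list was 545 to 1648 CPM early and 272 to 1185 CPM late. In granulocyte and monocyte priming, 18 of 30 members were positive with a median of 0.07. Neutrophil granule genes were positive in 5 of 7 measured members (median 1.52), with 0 called and 0 at an unadjusted p under 0.05. Their summed level was 17.6 to 1287 CPM early (median 123), highest in 4-week replicate 3, and 24.7 to 4017 CPM late (median 115), highest in 16-week replicate 3. S100a9, a calcium-binding protein of neutrophils, was at 0 to 301 CPM early and 0 to 714 CPM late (log2 change 1.67, SE 1.30, adjusted p = 0.882), and the arms overlapped. Irf8, the transcription factor of monocyte and dendritic fate, was at 33.1 to 151 CPM early and 0 to 36.0 CPM late (log2 change -2.36, SE 0.82, adjusted p = 0.733), and Lyz2, lysozyme, at 293 to 715 and 601 to 1052 CPM (log2 change 0.72, adjusted p = 0.49). In the erythroid list 7 of 20 were positive (median -0.32), with Car2, a carbonic anhydrase, the exception that led the list by p, at 740 to 1740 CPM early and 1532 to 2897 CPM late (log2 change 0.92, adjusted p = 0.279).

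Interferon-induced GTPases were lower late, and the 4 named below had their highest mean at 3 weeks and their lowest at 16 weeks. These proteins, of the IRG and GBP families, are made in response to interferons and act against pathogens inside cells. In mouse many of their promoters carry an interferon-stimulated response element, to which STAT and IRF factors bind. Of 13 measured members all 13 were negative (median -0.71), 0 were called, and 4 had an unadjusted p under 0.05. Over all genes tested, 3.32% were lower late at that p. Igtp (Irgm3) was at 334, 282 and 245 CPM at 3 weeks, 105, 157 and 163 CPM at 4 weeks, 25.9 to 127 CPM at 10 and 13 weeks and 31.9, 29.6 and 47.6 CPM at 16 weeks. In these 5 weeks all 3-week libraries exceeded the others, and the 4-week range overlapped that of 10 and 13 weeks. Between the arms Igtp was at 65.7 ± 32.8 CPM at 5 weeks and 78.9 ± 44.9 CPM at 8 weeks (SD, n = 3 each). At 6 weeks it was at 158 ± 179 CPM (SD, n = 3), and its highest library, at 360 CPM, exceeded every 3-week library. The log2 change of Igtp was -1.67 (SE 0.37, adjusted p = 0.275). Its gene overlaps Irgm2 on the same strand, so that reads of the pair may have been split or dropped.

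The promoters of 3 of these GTPases are shown because the log2 changes of these genes had the same sign. They were taken from the RefSeq table of build GRCm38.p6, from 250 bases before the annotated start to 50 after it, and each is written 5′ to 3′ on the gene's strand. Capitals mark the letters GAAA, any 2 bases and GAAA again, a form of the interferon-stimulated response element, searched on both strands.
Igtp (chr11:58199306-58199605, + strand): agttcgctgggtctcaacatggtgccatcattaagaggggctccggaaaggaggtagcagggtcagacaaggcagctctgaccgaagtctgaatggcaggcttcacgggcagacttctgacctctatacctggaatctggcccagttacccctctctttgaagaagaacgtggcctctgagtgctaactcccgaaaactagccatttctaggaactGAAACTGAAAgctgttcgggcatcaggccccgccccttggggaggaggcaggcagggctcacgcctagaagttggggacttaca
Irgm1 (chr11:48871371-48871670, - strand): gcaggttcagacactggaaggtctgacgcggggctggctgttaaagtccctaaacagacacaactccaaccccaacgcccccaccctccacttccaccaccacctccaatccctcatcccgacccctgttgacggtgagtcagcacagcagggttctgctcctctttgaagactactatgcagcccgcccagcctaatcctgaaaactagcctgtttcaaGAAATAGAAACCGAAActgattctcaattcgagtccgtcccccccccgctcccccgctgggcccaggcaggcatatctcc
Tgtp1 (chr11:48992197-48992496, - strand): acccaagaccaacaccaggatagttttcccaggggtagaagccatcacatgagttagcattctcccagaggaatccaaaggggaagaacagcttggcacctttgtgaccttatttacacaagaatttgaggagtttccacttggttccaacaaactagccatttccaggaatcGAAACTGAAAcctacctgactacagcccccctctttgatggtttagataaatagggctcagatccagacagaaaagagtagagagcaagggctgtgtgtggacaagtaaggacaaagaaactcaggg
The match began 34 bases before the start in Igtp, 77 before it in Tgtp1, and 30 and 24 before it in Irgm1, where a pair of overlapping matches form the capitals. Of the 10 measured GTPases with an entry in the table and searched here, 9 held these letters (90.0%), against 1131 of 32851 promoters in all (3.44%). The 10 were counted by gene, where any entry of a gene could match, and the 32851 by entry. Iigp1 lies on a chromosome left out of the list search but not of the 32851, so its promoter was not searched here. A match describes the letters only. Irgm1 was at 401, 461 and 378 CPM at 3 weeks and at 98.1 to 290 CPM in every later library of the arms (log2 change -0.75, SE 0.23, adjusted p = 0.603). Tgtp1 was at 128 to 245 CPM early and 55.1 to 170 CPM late (log2 change -0.71, adjusted p = 0.750), and reads shared with its near copy Tgtp2 make it uncertain. Iigp1 had arms that did not overlap, at 143 to 333 CPM early and 8.23 to 138 CPM late, the lowest in the 16-week libraries (8.23, 38.2 and 16.8 CPM), with a log2 change of -1.60 (SE 0.49, adjusted p = 0.572). In the wider type I interferon list 11 of 46 members were positive (median -0.24, 0 called). At an unadjusted p under 0.05, 4 were lower late, where 3.32% of all genes were so. Oasl2 was at 46.1 to 162 CPM early and 16.6 to 140 CPM late. Among immunoproteasome and MHC class I genes 6 of 19 were positive (median -0.30), led by H2-D1, a class I heavy chain, with 585 to 2024 CPM early and 501 to 1592 CPM late.

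**Figure D3:**
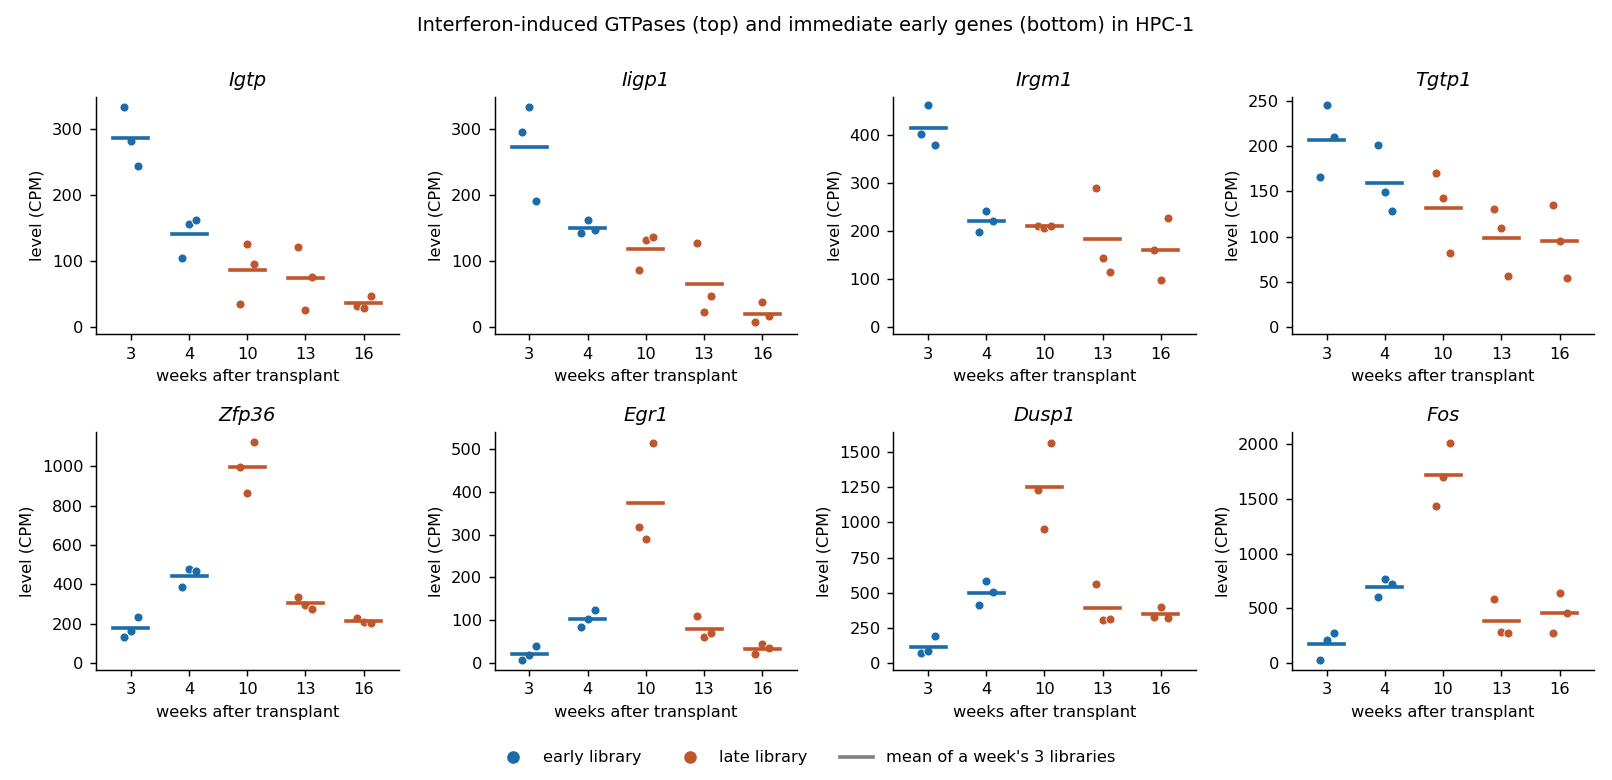
Levels in CPM (linear axis) of 4 interferon-induced GTPases (top) and 4 immediate early genes (bottom) in each HPC-1 library against weeks after transplant, with bars at the mean of a week's 3 libraries. The GTPases are highest at 3 weeks, and the immediate early genes are highest at 10 weeks, with Zfp36 at 864 to 1125 CPM there and at 201 to 226 CPM at 16 weeks.

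The immediate early genes differed more among weeks of an arm than between the arms. They encode transcription factors and RNA regulators that cells switch on within minutes of a signal. Late against early, 18 of 19 measured members were positive (median 0.67) and 0 were called. At an unadjusted p under 0.05 there were 2, both higher late, where 2.74% of all genes were so. Zfp36, tristetraprolin, which destabilizes AU-rich mRNAs, was at 133, 160 and 233 CPM at 3 weeks and 387, 478 and 468 CPM at 4 weeks. It then stood at 995, 864 and 1125 CPM at 10 weeks, 337, 296 and 273 CPM at 13 weeks and 226, 210 and 201 CPM at 16 weeks. The late arm thus held both the highest levels of the 5 weeks and levels near those of 3 weeks, and the log2 change between the arms was 0.74 (SE 0.45, adjusted p = 0.851). In the weeks between, the mean was 1101 ± 664 CPM at 5 weeks, 139 ± 6.21 CPM at 6 weeks and 1176 ± 384 CPM at 8 weeks (SD, n = 3 each), so the level did not follow the order of the weeks. Without the 10-week libraries the log2 changes of Zfp36, Egr1 and Fos between the arms turned to -0.24, -0.11 and -0.013.

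Within the late arm, 16 against 10 weeks, Zfp36 fell by 2.20 on the log2 scale (SE 0.22, adjusted p = 0.000502, edgeR over 12369 genes) and was the 1 gene called (0.00808%). With each library left out in turn its adjusted p lay between 0.000261 and 0.0120. In this comparison 2 of 22 immediate early genes were positive (median -1.34) and 11 had an unadjusted p under 0.05 and were lower at 16 weeks, where 3.59% of all genes were so and 6.99% passed in either direction. Egr1, a zinc finger transcription factor, was at 319, 291 and 515 CPM at 10 weeks and 19.9, 45.0 and 34.5 CPM at 16 weeks (log2 change -3.46, SE 0.53, adjusted p = 0.0622). Dusp1, a MAP kinase phosphatase, was at 1229, 956 and 1568 CPM and at 327, 398 and 316 CPM (log2 change -1.81, adjusted p = 0.206). Fos, the AP-1 subunit, was at 1433, 1701 and 2013 CPM and at 270, 643 and 455 CPM (log2 change -1.87, adjusted p = 0.703). In each of these 4 genes the 10-week libraries were all above the 16-week libraries. Gng11 did not pass in this comparison (log2 change 0.59, SE 0.39, adjusted p = 0.855), nor did Cd63 (log2 change 0.82, adjusted p = 0.714).

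Within the early arm, 4 against 3 weeks, no gene passed (0%), and 352 of 12369 had an unadjusted p under 0.05 (2.85%). The lowest adjusted p was that of Zfp36, 0.0993. Among immediate early genes 20 of 22 were positive (median 1.33) and 9 had an unadjusted p under 0.05 and were higher at 4 weeks, where 1.96% of all genes were so. DESeq2 called 23 genes here and limma voom 12. Cytosolic chaperones were lower at 4 weeks in 14 of 18 members (median -0.62).

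The promoter of Zfp36 is shown because this gene was called within the late arm, with a CArG box, the site of serum response factor, in capitals. The window is again 250 bases before to 50 after the start, RefSeq, GRCm38.p6.
Zfp36 (chr7:28379179-28379478, - strand): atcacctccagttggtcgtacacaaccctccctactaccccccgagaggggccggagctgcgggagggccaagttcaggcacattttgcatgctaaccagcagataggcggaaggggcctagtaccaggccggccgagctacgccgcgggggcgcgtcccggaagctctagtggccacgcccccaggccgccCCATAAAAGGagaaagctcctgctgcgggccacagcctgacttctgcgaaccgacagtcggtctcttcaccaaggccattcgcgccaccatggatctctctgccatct
The box began 58 bases before the annotated start. Of 17 measured immediate early genes with an entry and searched here, Zfp36 was the 1 that held a CArG box in this window (5.88%). Among all promoters 535 of 32851 held it (1.63%), both strands searched. The 17 were counted by gene and the 32851 by entry. Egr1 lies on a chromosome left out of the list search but not of the 32851, so its promoter was not searched here.

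Genes of growth and division were mostly lower late, by small amounts. Of 42 measured replication genes, 26 were negative (median -0.21) and 0 were called. At an unadjusted p under 0.05 there were 6 lower late and 2 higher late, against 3.32% and 2.74% of all genes. Mcm10, a replication initiation factor, had arms that did not overlap, at 19.4 to 51.8 CPM early and 0.497 to 17.3 CPM late (log2 change -1.97, SE 0.58, adjusted p = 0.551). The replicative helicase subunits Mcm5 and Mcm6 had log2 changes of -1.07 and -0.82, with Mcm6 at 395 to 1566 CPM early and 228 to 618 CPM late. In mitosis 31 of 35 genes were negative (median -0.20), Cenpe, a kinetochore motor, leading with 42.8 to 136 CPM early and 25.9 to 69.4 CPM late (adjusted p = 0.501). Among G1 cyclins and inhibitors 14 of 22 were negative. Ccnd3, cyclin D3, was at 233, 167 and 187 CPM at 3 weeks, 55.6, 71.5 and 201 CPM at 4 weeks and 40.2 to 85.4 CPM late (log2 change -1.25, SE 0.27, adjusted p = 0.275). A pair of 4-week libraries therefore lay within the late range. Ccnd3 overlaps Bysl on the other strand, and counting is not stated to have used strand.

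Metabolic lists differed in sign. Glycolysis genes were negative in 18 of 22 (median -0.45), with Pkm, pyruvate kinase, at 127 to 515 CPM early and 69.0 to 269 CPM late, and with Ldhb among the 4 that were positive. Nuclear genes of oxidative phosphorylation were positive in 43 of 53 (median 0.27), the 10 measured mitochondrially encoded genes were all positive (median 0.41) and the 44 cytosolic ribosomal protein genes were all positive (median 0.23), with 0 called in each. The members of oxidative phosphorylation with the smallest p went against the list, Atp5b and Atp5a1 of ATP synthase at log2 changes of -0.71 and -0.67. The short-transcript genes of these lists were also spread within an arm: Rps14, a small subunit protein, was at 939 to 1948 CPM early and 1139 to 2938 CPM late. Redox genes were positive in 18 of 24 (median 0.24), led by Gstm1, a glutathione transferase, at 136 to 347 CPM early and 308 to 745 CPM late (log2 change 0.94, adjusted p = 0.457). Cytosolic chaperones were negative in 16 of 18 (median -0.40). At an unadjusted p under 0.05 there were 7, all lower late, where 3.32% of all genes were so. Hspa8, the constitutive Hsc70, was at 3788, 3826 and 3475 CPM at 3 weeks, 1898 to 2296 CPM at 4 weeks and 1164 to 2498 CPM late (log2 change -0.62, SE 0.19, adjusted p = 0.551). Here the 3-week libraries stood alone, and those of 4 weeks lay within the late range.

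**Figure D4:**
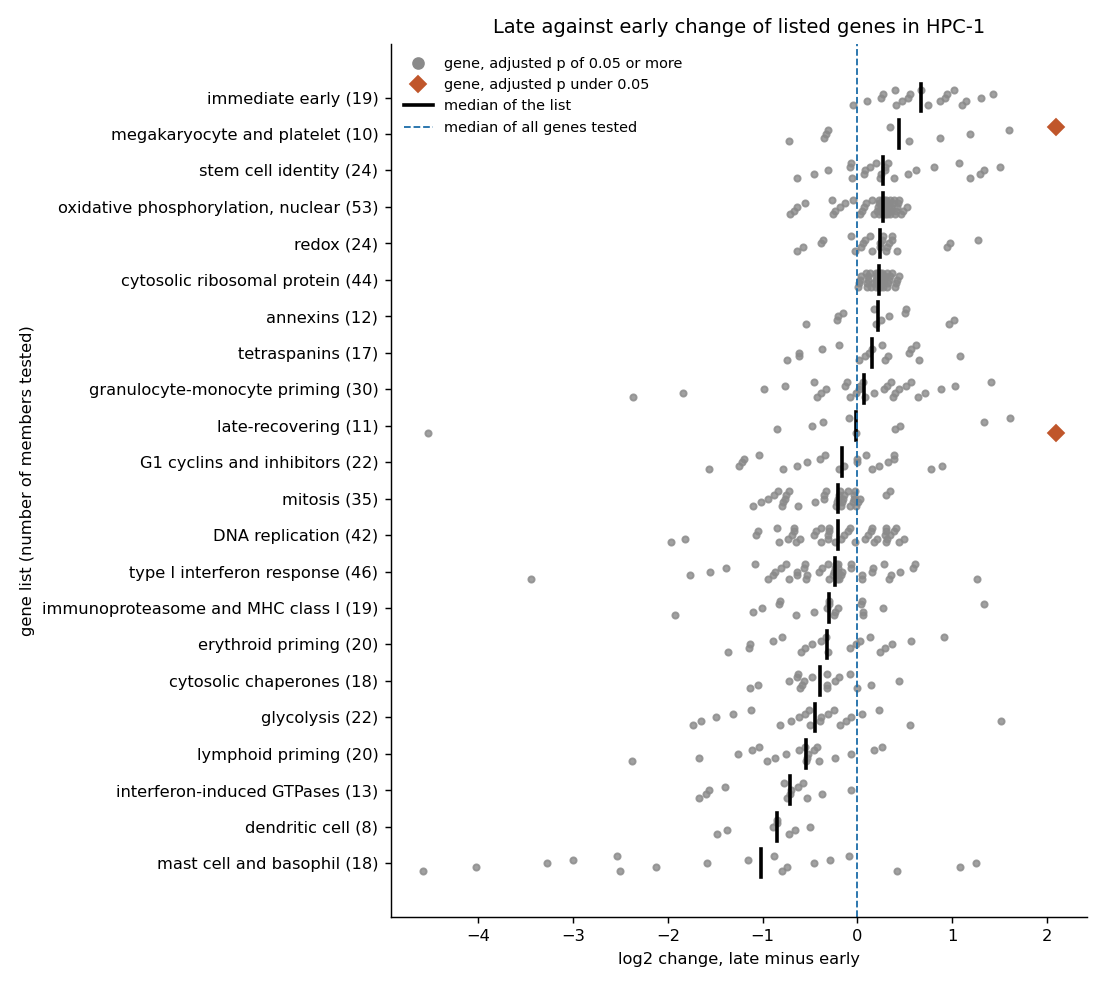
Log2 change, late minus early, of each measured member of 22 gene lists (rows, with the number of members tested). Grey points are genes that did not pass the test, orange diamonds mark Gng11, black bars are list medians and the dashed line is the median of all genes tested. Among the lists shown, medians run from -1.02 for mast cells and basophils to 0.67 for immediate early genes.

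The genes lower late whose arms did not overlap included Mcm10 and Iigp1, described above, and 5 more that are named after their values were seen. These 5 were Sf3b4, a splicing factor (166 to 270 CPM early, 90.3 to 164 CPM late), Spns3, a membrane transporter homologue (66.3 to 117 and 10.2 to 64.4 CPM), Ptdss2, a phosphatidylserine synthase (31.0 to 59.9 and 0 to 30.4 CPM), Tstd2 (14.2 to 32.1 and 0 to 7.85 CPM) and A630052C17Rik (10.1 to 40.0 and 0 to 9.95 CPM). Their adjusted p ran from 0.636 to 0.850. Lgals1, galectin-1, had a smaller p but overlapped by a small margin, at 255 to 631 CPM early and 147 to 290 CPM late (log2 change -1.02, adjusted p = 0.291).

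The late against early difference was then compared with that in the other transplanted populations of the study, HSC and HPC-2, of the same weeks (15 libraries each, 45 in the fit). The count column names number the 3 populations of a week and replicate in a row, which may mark matched sorts. The fit took all libraries as independent, and the effect of such a matching was not tested. The treatment label is the same throughout, except that HPC-2 replicate 1 of 3 weeks is labelled untreated. Its title was followed, and without it 0 genes were called against HPC-2. In the late arm, 2 HSC and 3 HPC-2 libraries had fewer than 10000 genes detected, and 1 early and 1 late HPC-2 library were nearly the same as a library under another label. Gng11 was higher late in each: 200 ± 65.3 CPM early and 489 ± 201 CPM late in HSC, and 60.0 ± 35.7 and 129 ± 60.9 CPM in HPC-2 (SD, n = 6 and n = 9). The difference between the log2 change in HPC-1 and that in HSC was 0.77 (SE 0.53, adjusted p = 1.00), and that between HPC-1 and HPC-2 was 1.15 (SE 0.53, adjusted p = 0.794). These differences were 0.94 and 0.93 without the libraries of fewer than 10000 genes (adjusted p = 1.00 and 0.919), and 0.81 and 0.81 without the near-identical libraries (adjusted p = 1.00 each). Cd63 in HSC was at 472 ± 142 CPM early and 946 ± 171 CPM late, and its difference from HPC-1 was 0.05 (SE 0.39, adjusted p = 1.00). Igtp was lower late in all 3 populations, at 332 ± 146 and 116 ± 64.4 CPM in HSC and 268 ± 129 and 105 ± 54.9 CPM in HPC-2, and its differences were -0.22 and -0.16 (SE 0.72 each). Without the libraries of fewer than 10000 genes they were -0.59 and 0.05 (SE 0.50 and 0.51). No gene passed in either comparison (0% each), against 4.25% and 5.94% of 13050 genes at an unadjusted p under 0.05. The count was also 0 with either set of libraries left out. The lowest adjusted p was 0.540 against HSC and 0.390 against HPC-2, where DESeq2 called 116 and 107 genes. With these standard errors the tests do not show that the populations acted alike. Against HPC-2, RLE in place of TMM scaling moved the median of all 13050 genes from 0.14 to -0.21, so that a difference of that size has no fixed sign.

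**Figure D5:**
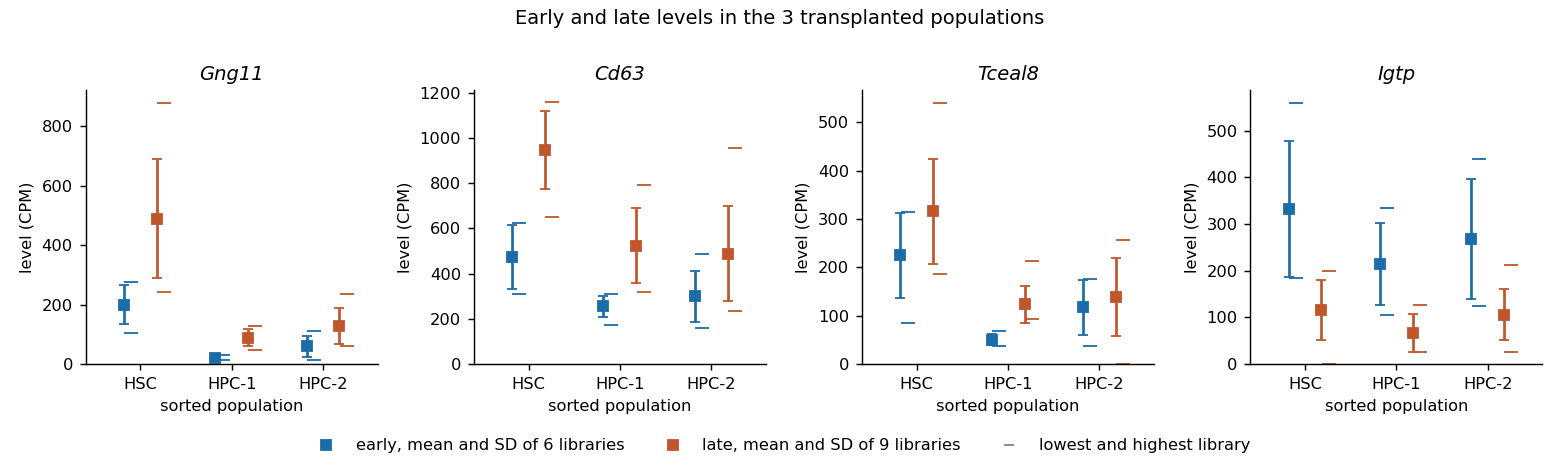
Levels in CPM (linear axis) of 4 genes early and late after transplant in HSC, HPC-1 and HPC-2. Squares and bars are the mean and SD of 6 early (blue) and 9 late (orange) libraries, and dashes the lowest and highest library. Gng11 and Cd63 are higher late and Igtp is lower late in the means of all 3 populations, and HPC-1 has the lowest means of Gng11 (21.5 and 89.2 CPM).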

How the data were processed

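Whole-number read counts per gene were deposited by the authors for 95 libraries and 53465 gene entries (3433 without a symbol). Trimmomatic 0.36, HISAT2 2.0.5, Picard and featureCounts, and the build GRCm38 (mm10), are named in the submitters' processing notes, and no strand setting is given in the sources used here. The protocol does not mark strand, so overlapping and antisense genes cannot be told apart. Gene positions are those of GENCODE M21, matched by 99.6% of identifiers.

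Counts of the 15 HPC-1 libraries were kept by edgeR's expression filter, scaled by TMM and tested with the quasi-likelihood F test, 1 mean per arm, with Benjamini-Hochberg adjustment over all genes tested and a threshold of 0.05. Weeks within an arm were tested with 5 week groups, and differences from HSC and HPC-2 as interactions over 45 libraries. The filter and the model were tested on simulated data. DESeq2 1.42.0, limma 3.58.1 voom with sample weights, other filters and scalings, weeks or libraries left out and a replicate block were the alternatives. CPM are counts scaled to the library total, SE comes from the F statistic, and intervals and floors cover counting error only. Library pairs were compared by chi-square over genes with at least 20 summed counts.

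The members, gene lists and naming rule were chosen with earlier results of these data known. Named are called genes (up to 12 per direction, mean of at least 10 CPM, at least 80% of libraries nearer to their own arm's mean log2 level), the 3 marker genes, the sort markers, up to 4 members with the smallest p of each list described, and in the other comparisons up to 3 called genes per direction. Cpsf7, Serpini1, Akr1c12, Akr1c13, A530040E14Rik, Sf3b4, Spns3, Ptdss2, Tstd2, A630052C17Rik, Lgals1, Ccl3, Zfp36, Btg2, Klf2, Mpo and mast cell genes beyond the first 4 were added after their values were seen. Of the genes this rule names, 2 are not reported here. Promoters come from RefSeq (531 of 683 listed genes tested had an entry). Software was R 4.3.3, edgeR 4.0.16, Python 3.11.15 and matplotlib 3.10.9.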

Additional observations from a re-analysis of the deposited data

Results flagged for a closer look

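Among 115 genes in the early and the late arm (230 groups of 6 or 9 libraries), 26 groups held a library whose gap to its nearest neighbour exceeded Dixon's 95% critical value for the group's range. That value holds for normal data, so for CPM, with zeros in low genes, the share that chance would flag is not known. Groups with no spread were counted but could not be flagged. The values are CPM, with that of the nearest library of the same arm in brackets.

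Several concern progenitor and stem cell genes. Kit was at 211 CPM in 4-week replicate 3 (95.9). Lmo2 was at 796 CPM in the same library (549). Slamf1 was at 25.2 CPM in 13-week replicate 2 (2.88), the library that is nearly the same as one labelled steady-state HPC-2. Pf4 was at 22.1 CPM in 4-week replicate 2 (6.86). Ermap, an erythroid surface gene, was at 27.2 CPM in 10-week replicate 2 (12.9).

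In 10-week replicate 3, nearly the same as a library labelled 8 weeks, Gimap4 was at 15.7 CPM (0), Tpsb2 at 39.0 CPM (17.3), Oasl1 at 6.08 CPM (2.22), Btg2 at 324 CPM (146) and Mpo, myeloperoxidase, at 5037 CPM (1788). Without it the log2 change of Mpo was -0.73 in place of 0.03.

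Mast cell and granule genes gave 6 more flags. Cma1 was at 75.9 CPM in 16-week replicate 1 (26.4). Gzmb was at 30.1 CPM in 10-week replicate 2 (0.760). Prss34 was at 11.6 CPM in 4-week replicate 2 (1.15) and at 3.95 CPM in 10-week replicate 2 (0). Ms4a2 was at 32.1 CPM in 13-week replicate 1 (1.77). Tpsab1 was at 2.30 CPM in 4-week replicate 3, with no count in the other early libraries.

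The B cell genes were Ebf1, at 21.3 CPM in 3-week replicate 1 (1.15), and Cd79b, at 165 CPM in 16-week replicate 1 (116). The rest were Oasl1 at 51.7 CPM in 3-week replicate 3 (19.0), Tapbp at 189 CPM in 13-week replicate 1 (88.0), Cdkn1a at 28.5 CPM in 10-week replicate 1 (18.0), Anxa4 at 528 CPM in 10-week replicate 1 (327), Ldhb at 45.1 CPM in 4-week replicate 2 (32.5), Rps14 at 2938 CPM (1922) and Rps19 at 2325 CPM (1721) in 16-week replicate 2, and Sf3b4 at 270 CPM in 3-week replicate 1 (187).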

How the results depend on the processing

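Late against early, 1 gene was called, and also 1 with RLE scaling or a 10 CPM filter. The count was 39 with DESeq2, 16 with limma voom, 0 without a filter, 2 without the near-identical libraries, 2 with 5 week groups and 0 in a fit of all 24 transplanted HPC-1 libraries. It was 1, 4, 5, 0 and 0 without the 3-, 4-, 10-, 13- and 16-week libraries. Without the 3-week libraries the 1 gene was Mcpt4, lower late, and not Gng11. Beside Gng11, Gimap4 was called, lower late, without the near-identical libraries, a fit that leaves out 10-week replicate 3. The log2 change of Gng11 was positive throughout and lost its call (edgeR's adjusted p in brackets) at 2.07 without a filter (0.0562), 2.10 over 24 libraries (0.154), 1.76 without the 3-week libraries (0.542), 1.95 without the 13-week (0.165) and 2.03 without the 16-week libraries (0.286). With single libraries left out 0 to 2 genes were called and the log2 change of Gng11 was 1.96 to 2.26. The median over all genes lay at -0.20 with voom and -0.10 with 5 week groups, against -0.01. The cause was not tested.

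Replicate numbers were not taken as pairs, since no label says what a shared number stands for. For HPC-1 the sample numbers in the count column names do run in blocks by replicate number. Over 30 same-numbered pairs the correlation of deviations was -0.061 to 0.261, over 0.1 in 5. Its median was 0.035, against -0.0098 for other numbers. That 10 of 15 libraries correlated best with their own number is a hint from the data, and the labels do not state a pairing. With the number as a replicate block 0 genes were called late against early, Gng11 at 2.10 (adjusted p = 0.0678), and no other call moved. The bound for Mcpt4 was 446-fold in place of 762-fold without 4-week replicate 3.

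For 4 against 3 weeks 0 genes were called, with 23 by DESeq2, 1 without a filter, 12 by voom and 0 to 2 with libraries left out. For 16 against 10 weeks 1 gene was called, with 77 by DESeq2, 6 without a filter, 2 with a 10 CPM filter, 2 without near-identical libraries, 5 by voom and 1 to 3 with libraries left out. The interactions had 0 calls in edgeR, against 116 (DESeq2) and 41 (voom) for HSC and 107 (DESeq2) for HPC-2.

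Of 3095 values of 107 single genes, 21 changed sign. Mpo, at 0.03, was -1.10 without near-identical libraries, -0.18 with the block, -0.55 with voom, -0.31 with 5 week groups, -0.13 without 4-week and -0.64 without 10-week libraries, and -0.73 to 0.27 with single libraries left out. Without the 10-week libraries Egr1 was -0.11, Fos -0.013, Zfp36 -0.24, Btg2 -0.29 and Klf2 -0.36. Dnaja1 was 0.12 without the 3-week, Cd48 0.027 and Mcpt8 0.39 without the 4-week, and Cd79b -0.017 without the 16-week libraries. Cd48, at -0.13, was -0.27 to 0.015 with single libraries left out. Depth limits low genes most: a count of 0 in 1 library allows up to 0.494 to 0.760 CPM (3 counts).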
